A study of Mus musculus with 60 samples.

Results

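Imprinted genes are described here in POLE4-dTAG mESCs. The 36 genes of a list of well known mouse imprinted genes were taken as members when they held at least 100 counts over all libraries. All 36 of 36 did, out of 55487 genes in the count tables, which also hold 1146 repeat subfamilies. They lie in 17 imprinted clusters on 9 chromosomes. Of these genes 30 are protein-coding and 6 are noncoding. As usually described, 21 are expressed from the paternal and 10 from the maternal allele. Grb10 is maternal, with a paternal transcript in neurons. Blcap and Commd1 are maternal in brain, and the expressed allele depends on the transcript for Gnas and H13. The list was not chosen by expression values, but it was proposed with earlier results of these data known.

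RNA was sequenced from 60 libraries in 20 groups of 3. All cells were E14JU mESCs of a 129/Ola background in which the Pole4 gene had been fused to a degron, so that the ligand dTAG removes POLE4, a subunit of the leading strand polymerase epsilon. The line was made once in WT cells and once in MCM2-2A cells, whose replicative helicase subunit MCM2 carries a mutation of its histone binding. Cells received DMSO (Ctrl and Ctrl MCM2-2A) or 1 uM dTAG (dPOLE4 and dPOLE4 MCM2-2A). They were collected after 24 h in serum and LIF (T0), or at 12 h (T12), 24 h (T24) or 60 h (T60) of RA without LIF following that pretreatment. A separate set was collected after 96 h of DMSO or dTAG in serum and LIF. The RA times are those of the sample titles, which the series design text and the study's methods share. One treatment note in the labels differs and gives 24, 48 and 60 h. As far as the labels tell, each background is 1 edited line, and such lines grow from picked clones, so a difference between backgrounds cannot be told apart from a difference between clones. The counts sum both parental alleles, and the cells are inbred, so no value here says which allele was transcribed.

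Imprinted genes are transcribed mainly from the allele inherited from 1 parent. The choice is carried by DNA methylation laid down in egg or sperm at imprinting control regions, and it is kept through early development by ZFP57, TRIM28 and the maintenance methyltransferase DNMT1 together with histone marks. Many imprinted genes control fetal and placental growth, such as Igf2 and its clearance receptor Igf2r. In cultured mESCs imprints can be lost or gained as clones are passaged, and RA differentiation takes the cells away from pluripotency.

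The 48 libraries taken at T0 or during RA held 10461077 to 46609151 counts each, and the 12 of the 96 h set 7126100 to 23598266. Levels are given in CPM, counts scaled to library size with TMM, with the values of the 3 libraries of a group. Differences are log2 fold changes with their standard error (SE) and the adjusted p of edgeR's quasi-likelihood test, with Benjamini-Hochberg adjustment over all tested features. A gene was called DE with an adjusted p under 0.01 and a log2 fold change above 0.58 or below -0.58. Pole4 RNA was not DE upon dTAG in any comparison (log2 fold change -0.21 to 0.07). The degron acts on the protein, so Pole4 RNA is no check of the labels. Pole4 RNA was lower in Ctrl MCM2-2A than in Ctrl at T0 (-0.68) and Mcm2 RNA was too (-0.70). Rtl1, a retrotransposon-derived gene with 145 counts in all and at most 8 in a library, passed the filter on low counts in no comparison. Airn did not pass it in 9 comparisons and Nap1l5 in 1.

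The sequences before the start sites of 3 members are shown, because Plagl1 carried the largest difference between the lines of any member, Mest the largest rise at T24 of RA in Ctrl and Meg3 a fall followed by a rise. ZFP57, which protects imprints, binds the 6-base motif TGCCGC when it is methylated, and the motif on either strand is in capitals. Each run is the 250 bases before a transcription start in RefSeq GRCm38.p6, on the plus strand, at chr10:13090582-13090831, chr6:30737800-30738049 and chr12:109540746-109540995.
Plagl1: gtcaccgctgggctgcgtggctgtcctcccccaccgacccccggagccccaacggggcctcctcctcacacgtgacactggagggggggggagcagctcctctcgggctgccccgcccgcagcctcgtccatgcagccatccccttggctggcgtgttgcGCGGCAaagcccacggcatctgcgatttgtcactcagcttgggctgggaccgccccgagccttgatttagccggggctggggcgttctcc
Mest: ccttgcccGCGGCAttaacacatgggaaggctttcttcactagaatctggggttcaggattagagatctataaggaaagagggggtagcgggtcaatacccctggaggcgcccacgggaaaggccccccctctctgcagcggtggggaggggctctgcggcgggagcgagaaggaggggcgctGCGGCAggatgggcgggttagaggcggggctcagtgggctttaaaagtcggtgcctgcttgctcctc
Meg3: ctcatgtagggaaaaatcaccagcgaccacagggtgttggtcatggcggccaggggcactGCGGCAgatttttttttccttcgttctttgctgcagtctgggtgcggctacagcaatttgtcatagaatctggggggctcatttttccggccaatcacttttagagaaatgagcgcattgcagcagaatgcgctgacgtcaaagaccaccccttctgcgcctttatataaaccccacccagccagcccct
Plagl1 holds the motif at position 161 of its run, Mest at positions 9 and 184 and Meg3 at position 61, each written as its reverse complement GCGGCA. Each run was taken from a window around a start that held the motif, so its presence there was fixed by the choice. Plagl1 had only 1 window, which held it. Mest had 3 windows, 2 of them with the motif, and Meg3 had 2 windows, 1 of them with it. The Plagl1 run holds 19 CpG, the Mest run 14 and the Meg3 run 10. Promoter windows of 300 bases (250 before and 50 after the start) were in the RefSeq table for 30 members, and not for H19, Rtl1, Cdkn1c, Impact, Peg10 and Sgce. Of 45 windows of members, 13 held the motif (28.9%), against 11.6% of all 32851 windows. They belonged to 12 of the 30 members with a window, where 13.1% of all genes with a window had the motif in 1 or more. These members were Igf2, Meg3, Zim1, Snrpn, Mest, Plagl1, Zdbf2, Grb10, Nnat, Nap1l5, Commd1 and Mcts2. Member windows held a median of 15.0 CpG, against 7.0 over all windows. The motif itself holds a CpG, and the part of CpG content in its share among members was not tested. The windows of Peg3 and Usp29, which are transcribed away from a shared start region, had 263 bases in common. A match describes these letters and is not a measured binding site.

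H19 and Mest also carry miRNAs inside their transcripts, and these 4 mature miRNAs are shown since H19 had the largest rise during RA in Ctrl and Mest the largest at T24. Their seeds, bases 2 to 8, are in capitals, and the 4 seeds differ. They lie at chr7:142577078-142577099 and chr7:142577112-142577133 on the minus strand and at chr6:30741354-30741375 and chr6:30741314-30741336 on the plus strand.
mmu-miR-675-3p: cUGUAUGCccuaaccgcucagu
mmu-miR-675-5p: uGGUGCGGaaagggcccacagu
mmu-miR-335-3p: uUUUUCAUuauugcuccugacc
mmu-miR-335-5p: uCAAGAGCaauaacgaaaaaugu
The libraries measured the long host transcripts, and mature miRNA levels were not measured. Reads of H19 and of the hairpin gene Mir675 inside its exon share bases, and Mir675 held 146520 counts of its own in the tables.

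In Ctrl at T0, the members differed widely in level per transcript length. Peg10, a retrotransposon-derived gene needed for the placenta, led with a mean of 229 CPM per kb. H19 followed with 100, Snrpn with 70.8 and Mest with 51.8 CPM per kb. Mcts2, Impact, Rian and Peg3 lay between 38.3 and 21.8 CPM per kb. At the other end Airn (0.254), Nap1l5 (0.235) and Zim1 (0.207) were close to each other, and Rtl1 was lowest with 0.0175 CPM per kb. The members Meg3 and Zdbf2 (15.0 and 14.9 CPM per kb) and Mirg and Zrsr1 (both 10.3) are neighbours in this order with nearly equal means.

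The comparison of Ctrl MCM2-2A with Ctrl asks how the 2 lines differ before any depletion. At T0, 3 members were higher and 10 lower in Ctrl MCM2-2A of 35 tested, where 18.9% of all tested features were called (9.83% higher and 9.06% lower). At T12 the counts were 2 and 8 of 34 tested (14.5% of features called, 6.93% higher and 7.62% lower). At T24 they were 2 and 12 of 35 (17.3%, with 9.71% higher and 7.60% lower), and at T60 they were 2 and 18 of 35 (16.9%, with 8.97% higher and 7.93% lower). After 96 h 3 were higher and 6 lower of 34 (15.7%, with 9.23% higher and 6.47% lower). The median log2 fold change of the tested members was -0.29, -0.31, -0.22, -0.59 and -0.02 at these 5 points, while the median over all tested features lay between -0.02 and 0.01. The same lines both treated with dTAG (dPOLE4 MCM2-2A against dPOLE4) gave 12, 12, 13, 21 and 9 called members, where 18.6%, 18.4%, 16.1%, 20.4% and 16.4% of features were called.

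The counts were also split by the allele that is usually expressed. Of the 20 paternal members tested at T0, 1 was higher and 8 were lower, and of the 10 maternal ones 2 were higher and none lower. The medians were -0.50 and 0.20 on the log2 scale. At T12 the counts were 1 and 6 of 19 paternal and 1 and 0 of 10 maternal members, and at T24 they were 1 and 9 of 20 and 1 and 1 of 10. At T60 they were 1 and 11 of 20 paternal members (median -0.67) and 1 and 5 of 10 maternal members (median -0.58), and after 96 h 3 and 4 of 19 and 0 and 0 of 10. The difference between the 2 classes was not tested. Over the 10 comparisons of lines, 28 of 35 tested members were called at least once, against 39.8% of all features tested. Plagl1 and Commd1 were lower in all 10, Ndn and Grb10 were lower in 9 and Igf2 was higher in 9. Snrpn, Slc22a18, Impact, Blcap, Gnas, Mcts2 and H13 were tested in all 10 and called in none. Dlk1, Magel2, Cdkn1c, Phlda2 and Peg10 were higher at some points and lower at others. Comparisons at 1 point share no library, but all points come from the same lines. At T0 some marker lists also stood apart between the lines. Retinoic acid and neural markers summed to 117 to 141 CPM in Ctrl and 54.9 to 63.5 CPM in Ctrl MCM2-2A. Extraembryonic endoderm markers summed to 165 to 192 and 121 to 157 CPM and fibroblast markers to 51.1 to 65.3 and 35.7 to 48.1 CPM. Single genes of a list moved in opposite directions. Of the endoderm list Lama1 was lower in Ctrl MCM2-2A (mean 158 and 95.8 CPM). Gata4 (1.42 and 7.70), Gata6 (2.95 and 7.30), Sox7 (1.13 and 4.64) and Dab2 were higher, without overlap of libraries. Of the fibroblast list Col1a1, Col1a2 and Col3a1 were lower and Thy1 was higher, also without overlap. The part of these marker differences in the differences of the members was not tested.

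**Figure D1:**
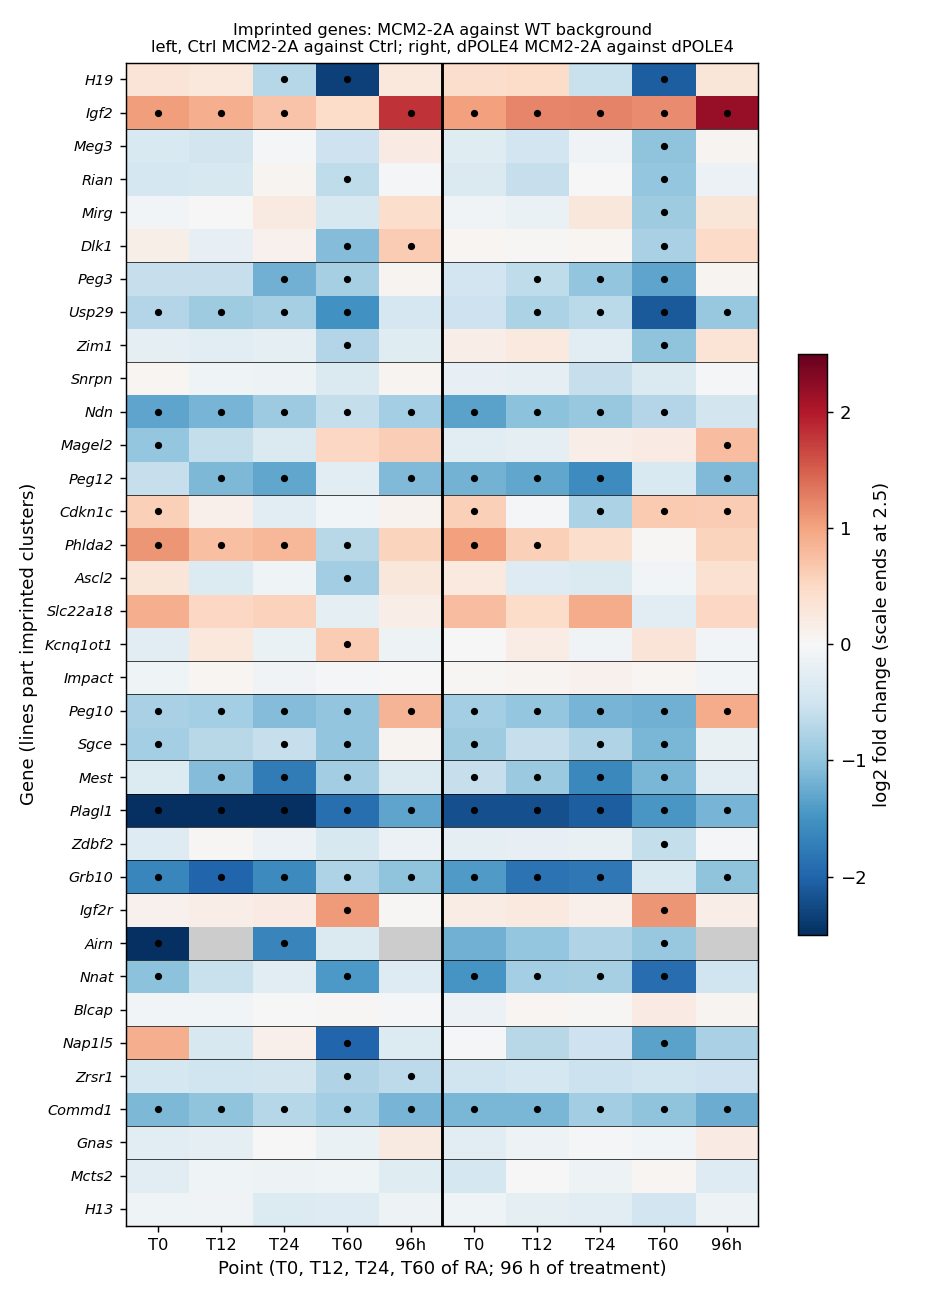
Log2 fold change of MCM2-2A over WT for 35 imprinted genes (rows, grouped by cluster) at 5 points (columns), for DMSO-treated cells on the left and dTAG-treated cells on the right. Colour gives the log2 fold change, a dot marks a DE gene and gray was not tested. Plagl1 and Commd1 are blue with a dot in all 10 columns, and Igf2 is red with a dot in 9.

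Plagl1, a zinc finger transcription factor that restrains proliferation (mm10 chr10:13060504-13131694, plus strand), differed most between the lines. At T0 its level was 50.4, 39.4 and 45.6 CPM in Ctrl and 7.34, 8.41 and 7.60 CPM in Ctrl MCM2-2A. The groups lay far apart, a 5.91-fold difference (log2 fold change -2.56, SE 0.11, edgeR adjusted p = 2.08e-08). It was 6.71-fold lower at T12 (-2.75, SE 0.12) and 3.72-fold lower at T60 (-1.89, SE 0.08). After 96 h the values were 35.9, 30.5 and 26.0 CPM against 10.5, 11.9 and 13.7 CPM (-1.31, SE 0.14). The dTAG-treated lines gave 50.0, 35.9 and 43.6 CPM in dPOLE4 and 8.94, 7.04 and 11.2 CPM in dPOLE4 MCM2-2A at T0, again without overlap. Across the 10 comparisons the log2 fold change of Plagl1 lay between -2.75 and -1.17. The other 28 tested genes within 5 Mb of Plagl1 had a median of -0.29 at T0, and none of them was as low as Plagl1.

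Grb10, an adaptor that dampens insulin and IGF receptor signalling (chr11:11930508-12038683, minus strand), was at 38.6, 31.9 and 31.8 CPM in Ctrl and 12.1, 9.56 and 11.2 CPM in Ctrl MCM2-2A at T0. It was 3.11-fold lower (-1.64, SE 0.10, edgeR adjusted p = 3.15e-07) and 3.97-fold lower at T12. Commd1, a gene of copper and NF-kB regulation (chr11:22896136-22982382, minus strand), was at 30.8, 28.8 and 26.3 CPM against 14.7, 11.9 and 13 CPM, a 2.18-fold difference (-1.12, SE 0.09). Zrsr1, a splicing factor retrogene inside Commd1 on the other strand (chr11:22972005-22976496, plus strand), was at 47.4, 44.0 and 47.4 CPM against 37.1, 31.9 and 34.5 CPM and was not DE at T0, but was at T60 (-0.76) and after 96 h (-0.65). Zrsr1 and Commd1 share 412 exon bases, 9.17% of those of Zrsr1 and 6.94% of those of Commd1. Commd1 also shares 4.95% of its exon bases with the same-strand model Gm28048, so reads there are uncertain. Without Ctrl replicate 1 of 96 h, Zrsr1 was at -0.57 and no longer called. These 3 genes lie on chromosome 11, where the median over 1388 tested genes was -0.48 on the log2 scale at T0. Among the 35 other genes within 5 Mb of Commd1 the median was -0.73, and 8.57% of them were lower than Commd1. Within 5 Mb of Grb10 the median of 18 genes was -0.77 and 22.2% were lower than Grb10, and within 2 Mb the median of 4 genes was -1.21. So chromosome 11 stood lower in median in the MCM2-2A line, 91.4% of the genes within 5 Mb of Zrsr1 were lower than Zrsr1, and Grb10 and Commd1 lay within the range of theirs. What part the chromosome had in these 3 results was not tested.

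**Figure D2:**
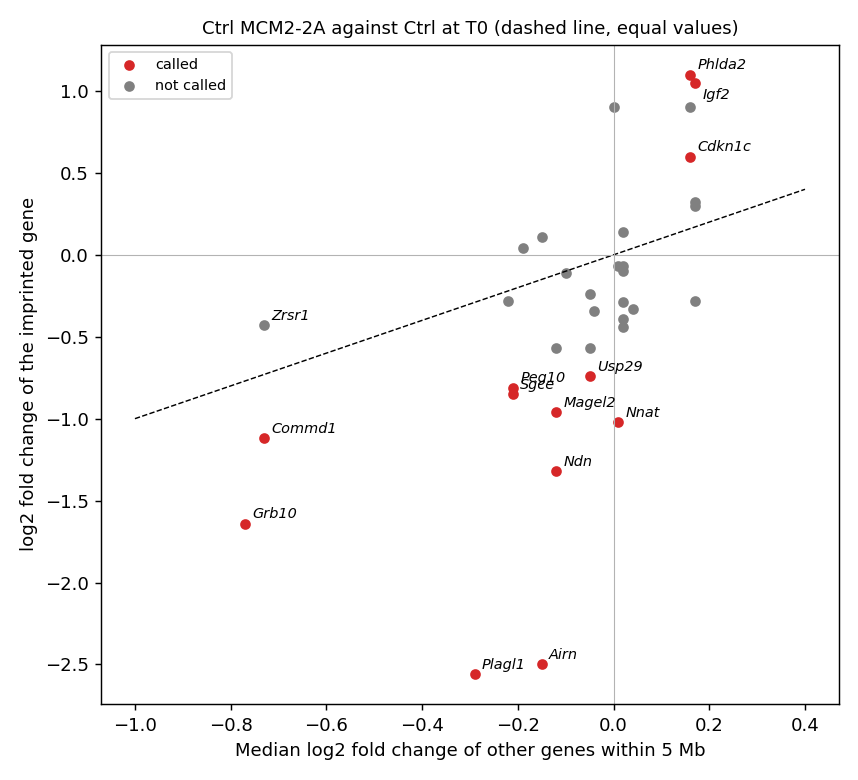
Log2 fold change of each imprinted gene in Ctrl MCM2-2A against Ctrl at T0 (vertical axis) against the median log2 fold change of the other tested genes within 5 Mb (horizontal axis). The dashed line marks equal values. Plagl1 (-2.56) and Ndn (-1.32) lie far below the line at medians of -0.29 and -0.12, and Grb10 and Commd1 sit at medians of -0.77 and -0.73.

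In the Snrpn cluster of chromosome 7, the MAGE family gene Ndn (chr7:62346569-62350262, plus strand) was at 10.0, 11.2 and 9.30 CPM in Ctrl and 4.60, 3.29 and 4.22 CPM in Ctrl MCM2-2A at T0 (2.50-fold lower, log2 fold change -1.32, SE 0.14). It was lower at all 5 points, and at T60 (-0.59) the call was lost without Ctrl T60 replicate 1 (-0.54). Peg12, an inhibitor of GSK3 in the Frat family (chr7:62461871-62464510, minus strand), was lower at T12 (-1.12), T24 (-1.29) and 96 h (-1.10). Its 96 h values were 3.40, 3.39 and 2.93 CPM against 1.52, 1.49 and 1.46 CPM. The T12 call of Peg12 was lost without Ctrl T12 replicate 1 or 2 or Ctrl MCM2-2A T12 replicate 1 or 2 (edgeR adjusted p 0.0128 to 0.0326), and the 96 h call without Ctrl MCM2-2A replicate 3 (0.0142). Magel2 (chr7:62377010-62381640, plus strand), the neighbour of Ndn, was at 6.52, 6.38 and 8.19 CPM against 3.49, 3.52 and 3.88 CPM at T0 (-0.96). After 96 h Magel2 was higher instead (0.62, edgeR adjusted p = 0.0125) and was not called, but with the replicate number as a block it was (adjusted p = 0.00541). Snrpn itself, which encodes a spliceosome protein (chr7:59982495-60140219, minus strand), had 154, 149 and 155 CPM against 168, 158 and 152 CPM, and its groups overlapped. The 39 other genes within 5 Mb of Ndn had a median of -0.12 at T0, and none was as low.

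Peg10 and Sgce share a start region on chromosome 6 and are read in opposite directions (chr6:4747306-4760517, plus, and chr6:4674350-4747207, minus). Peg10 was at 1695, 1408 and 1483 CPM in Ctrl and 782, 852 and 1002 CPM in Ctrl MCM2-2A at T0 (-0.81, SE 0.10). Sgce, epsilon-sarcoglycan of the muscle dystroglycan complex, was at 7.14, 5.70 and 6.57 CPM against 4.28, 2.91 and 3.53 CPM (-0.85, SE 0.16). After 96 h Peg10 was higher instead, at 1234, 1050 and 1479 CPM in Ctrl MCM2-2A against 906, 555 and 664 CPM in Ctrl (0.84, SE 0.16, edgeR adjusted p = 0.0011). The 2 sets were counted and normalized in separate tables, so only the differences within each are compared. Sgce was also lower at T60 (-0.98) and at T24 (-0.58). The T24 call was lost when 4 of the 6 libraries were left out in turn (-0.57 to -0.53).

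Igf2, the fetal growth factor (chr7:142650766-142666816, minus strand), was higher in the MCM2-2A line. Its level at T0 was 15.8, 13.4 and 13.8 CPM in Ctrl and 30.4, 30.7 and 29.0 CPM in Ctrl MCM2-2A (2.07-fold, 1.05, SE 0.08, edgeR adjusted p = 1.65e-06). After 96 h it was 10.9, 6.51 and 7.72 CPM against 24.5, 27.4 and 33.7 CPM, a 3.48-fold difference (1.80, SE 0.18). At T60 its log2 fold change was 0.45 (SE 0.06), under the size required. Igf2 shares 62.8% of its exon bases with the same-strand gene model Gm49394, so reads between these 2 models are uncertain. H19, the maternally expressed noncoding neighbour (chr7:142575529-142578143, minus strand), was at 260, 229 and 252 CPM against 329, 286 and 318 CPM at T0 and was not DE. It became lower in Ctrl MCM2-2A at T24 (-0.72) and T60 (-2.34). The 115 other genes within 5 Mb of Igf2 had a median of 0.17 at T0, and 89.6% of them were below Igf2.

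In the Kcnq1ot1 cluster next to it, Phlda2, a brake on placental growth (chr7:143501545-143503150, minus strand), was at 11, 14.5 and 12.4 CPM in Ctrl and 33.4, 25.4 and 23.8 CPM in Ctrl MCM2-2A at T0 (2.14-fold higher, 1.10, SE 0.13). It stayed higher at T12 (0.75) and T24 (0.83) and was lower at T60 (-0.69, SE 0.16, edgeR adjusted p = 0.00255). That last call was lost without Ctrl T60 replicate 3 (-0.49, 0.0201) or Ctrl MCM2-2A T60 replicate 3 (-0.68, 0.0105). Cdkn1c, the cyclin-dependent kinase inhibitor p57 (chr7:143458339-143461050, minus strand), was at 12.7, 13.6 and 12.8 CPM against 26.0, 17.5 and 16.7 CPM at T0 (0.60, SE 0.14, edgeR adjusted p = 0.00468). Here Ctrl MCM2-2A replicate 1 was the high library, and without it the log2 fold change was 0.39. Without Ctrl T0 replicate 1, 2 or 3 the Cdkn1c adjusted p was 0.0166, 0.0142 and 0.0229, so this call rested on each Ctrl library. Ascl2, a bHLH factor of trophoblast (chr7:142966829-142969264, minus strand), was lower at T60 only among the 5 points (-0.87). Kcnq1ot1, the antisense noncoding RNA of the cluster (chr7:143203458-143296549, minus strand), was higher at T60 (0.63, SE 0.12), but was at 0.52 to 0.56 and not called without Ctrl T60 replicate 1 or 3 or Ctrl MCM2-2A T60 replicate 2. Slc22a18, a membrane transporter (chr7:143473736-143499334, plus strand), was not DE at any point.

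Among the other clusters, Nnat, a small membrane protein of neurons (chr2:157560078-157562522, plus strand), was at 23.2, 18.7 and 19.2 CPM against 12.1, 9.94 and 8.77 CPM at T0 (2.02-fold lower, -1.02, SE 0.12). It was also lower at T60 (2.69-fold, -1.43), while Blcap, whose transcription unit surrounds Nnat on the other strand (chr2:157556362-157571274, minus), was DE at no point. Usp29, a deubiquitinase family gene (chr7:6730578-6967219, plus strand), was lower at the 4 points from T0 to T60 (-0.74 to -1.51), and its T0 call was lost without Ctrl MCM2-2A T0 replicate 3 (-0.58). At T60 it was at 44.8, 52.3 and 46.4 CPM in Ctrl and 16.0, 16.9 and 16.8 CPM in Ctrl MCM2-2A, with a wide gap between the groups. Airn, the noncoding antisense transcript of Igf2r (chr17:12741311-12860136, plus strand), had 1.08, 0.855 and 0.809 CPM against 0.186, 0.0765 and 0.171 CPM at T0 (-2.50, SE 0.39). At such low counts the size of this fold change is uncertain, but the groups did not overlap. Mest, a hydrolase-like gene of embryonic growth (chr6:30723547-30748465, plus strand), was at 744, 805 and 942 CPM in Ctrl and 222, 258 and 248 CPM in Ctrl MCM2-2A at T24 (3.36-fold lower, -1.75, SE 0.07, edgeR adjusted p = 2.96e-11), was also lower at T12 (-1.08) and T60 (-0.87), and was not DE at T0 or 96 h. Peg3, a zinc finger gene (chr7:6703892-6730431, minus strand), was lower at T24 (-1.21) and T60 (-0.83). Igf2r, the receptor that clears IGF2 (chr17:12682406-12769664, minus strand), was at 105, 94.2 and 90.5 CPM against 202, 197 and 207 CPM at T60 (2.10-fold higher, 1.07, SE 0.06), and was DE at no other of the 5 points. The Dlk1 call at 96 h (0.63) was lost when 4 of the 6 libraries were left out in turn (edgeR adjusted p 0.0102 to 0.0226).

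RA differentiation was followed in each line. At T12 in Ctrl, 4 members were higher and 6 lower than at T0, where 11.3% of features were called (7.24% higher and 4.04% lower). At T24 these counts were 11 and 6, against 21.8% of features (13.5% higher and 8.27% lower). At T60, 20 were higher and 4 lower of 35 tested, against 50.6% of features (26.9% higher and 23.7% lower). The T60 counts were 20 and 2 in dPOLE4 (48.1%, with 25.6% and 22.5%), 21 and 5 in Ctrl MCM2-2A (47.5%, with 26.3% and 21.2%) and 15 and 4 in dPOLE4 MCM2-2A (42.2%, with 23.0% and 19.3%). The median log2 fold change of the members at T60 was 1.16, 1.18, 0.97 and 0.49 in these 4 arms. The 3 RA times share the T0 libraries of their arm, so their values are set side by side only. In bulk RNA, a change in how many cells of a type express a gene and a change of RNA per cell cannot be told apart.

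At T60, 15 of 35 members were called higher in all 4 arms, against 18.0% of the features tested in all 4. These were H19, Igf2, Meg3, Dlk1, Peg3, Zim1, Ndn, Peg12, Peg10, Sgce, Mest, Plagl1, Airn, Nnat and Gnas. Snrpn and Mcts2 fell in all 4 arms, as 13.7% of features did. Cdkn1c, Slc22a18, Impact, Grb10, Blcap, Zrsr1 and Commd1 were called in none of the 4, and no member was called in opposite directions between arms. The whole fibroblast marker list rose in sum from 51.1 to 65.3 CPM in Ctrl at T0 to 402 to 547 CPM at T60, with 5 of 6 genes DE and higher and Thy1 lower, and extraembryonic endoderm markers rose from 165 to 192 CPM to 1129 to 1409 CPM, with 9 of 9 genes DE and higher. Imprinted genes such as H19, Igf2 and Dlk1 are abundant in such lineages, and the part of cell type in these results was not tested.

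**Figure D3:**
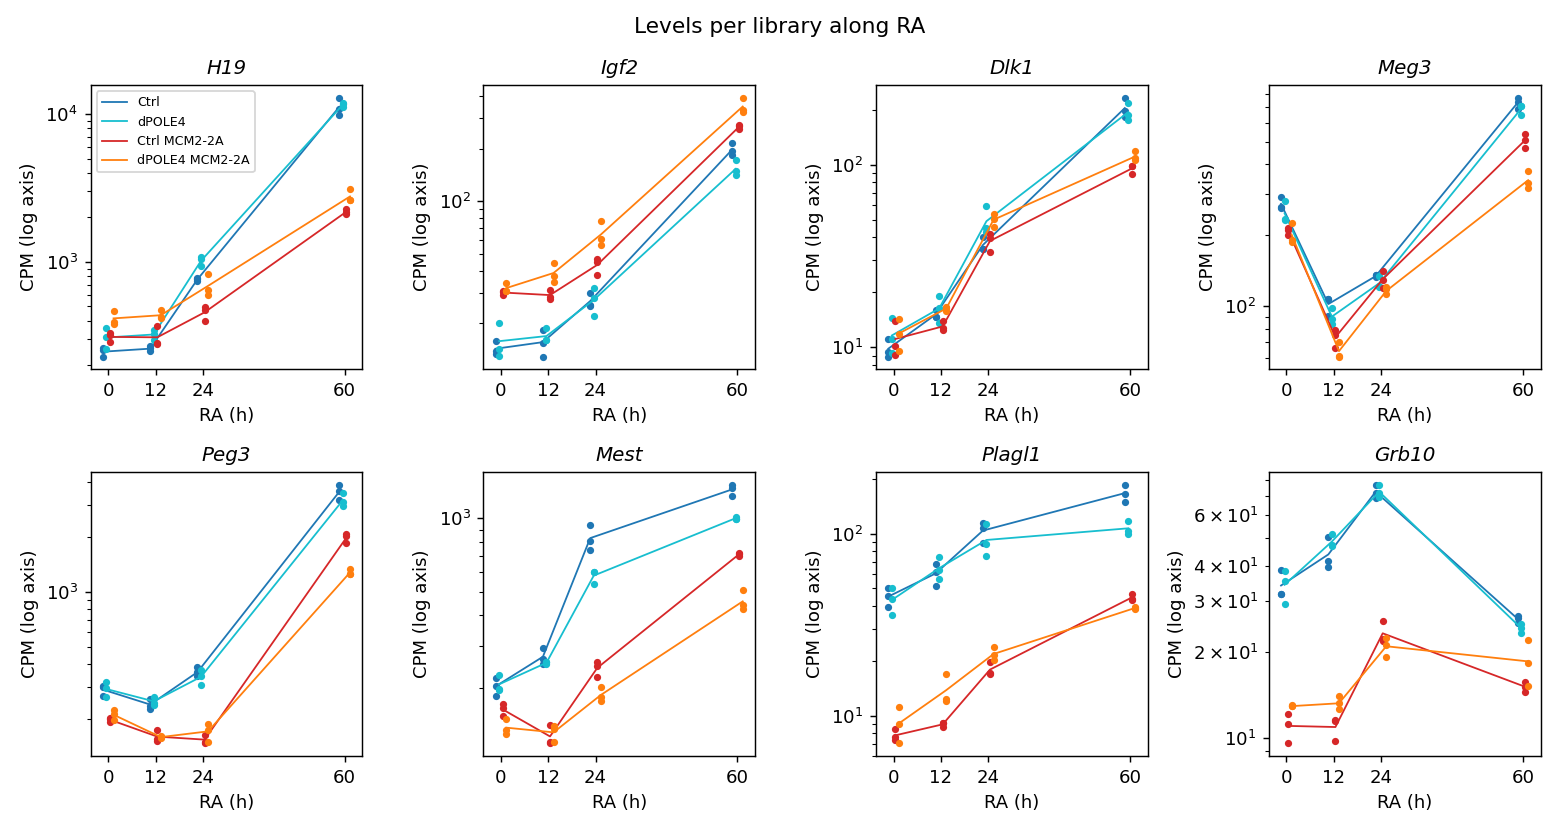
Levels of 8 imprinted genes in CPM on a log axis at 0, 12, 24 and 60 h of RA, where points are libraries, lines join group means and colours are the 4 arms. H19 reaches 9916 to 12869 CPM at 60 h in Ctrl and dPOLE4 and 2108 to 3106 CPM in the MCM2-2A arms, and Meg3 dips at 12 h in every arm before it rises.

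H19 and Igf2 rose most strongly within their cluster. H19 was at 260, 229 and 252 CPM at T0 in Ctrl, at 268, 261 and 249 CPM at T12, at 743, 766 and 780 CPM at T24 and at 10806, 9916 and 12869 CPM at T60. That is a 44.7-fold rise from T0 to T60 (log2 fold change 5.48, SE 0.11). In Ctrl MCM2-2A it went from 329, 286 and 318 CPM to 2267, 2108 and 2190 CPM (7.10-fold, 2.83, SE 0.08). The smaller rise was a difference between the lines in the test of the response itself (-2.68 on the log2 scale, SE 0.13, edgeR adjusted p = 1.20e-10), and in the dTAG-treated arms it was -2.50 (SE 0.16). Igf2 rose 13.6-fold in Ctrl, to 215, 184 and 194 CPM, and 9.01-fold in Ctrl MCM2-2A, to 269, 272 and 260 CPM. The difference of the 2 Igf2 responses was -0.63 (SE 0.10), and it was not called without Ctrl T0 replicate 2 (-0.58), Ctrl T60 replicate 1 (-0.53) or Ctrl MCM2-2A T60 replicate 3 (-0.57). In every library of the MCM2-2A line at T60, H19 was thus below and Igf2 above the values of the WT line in the same treatment.

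In the Dlk1-Meg3 cluster of chromosome 12, the maternal noncoding RNAs and the paternal coding gene took different courses. Meg3 (chr12:109541001-109571726, plus strand) was at 291, 264 and 260 CPM in Ctrl at T0. It dropped to 107, 107 and 91.1 CPM at T12 (-1.42, SE 0.07), was at 135, 135 and 133 CPM at T24 and reached 691, 768 and 735 CPM at T60 (1.41 above T0, 2.65-fold). Rian (chr12:109603940-109661716) and Mirg (chr12:109729764-109749460), read on the same strand downstream, moved alike, with -1.45 and -1.47 at T12, -1.0 and -1.10 at T24 and 1.16 and 1.12 at T60. Of the 14 miRNA genes on the same strand within Mirg, 9 share exon bases with it, and reads there could be split between models. The 4 within Rian share none of its exon bases. Dlk1, an inhibitor of adipocyte differentiation (chr12:109452823-109463336, plus strand), rose at all 3 times (0.63, 1.89 and 4.36). The T12 call of Dlk1 was lost without Ctrl T0 replicate 2 (0.56). Dlk1 went from 11.1, 8.89 and 9.45 CPM to 232, 183 and 197 CPM in Ctrl, and it reached 89.1, 98.7 and 98.2 CPM in Ctrl MCM2-2A from a T0 level of 13.9, 10.2 and 9.02 CPM. The response of Dlk1 was lower by 1.25 log2 units in the MCM2-2A line (difference -1.25, SE 0.17, edgeR adjusted p = 4.17e-05).

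In the Peg3 cluster, Peg3 rose from 299, 269 and 302 CPM to 3203, 3559 and 3876 CPM in Ctrl (12.1-fold) and 10.1-fold in Ctrl MCM2-2A, to 1850, 2030 and 2075 CPM. Usp29, read away from the same start region, rose by 2.27 in Ctrl and 1.50 in Ctrl MCM2-2A, a difference of -0.80 (SE 0.15). In dPOLE4 MCM2-2A its rise was 0.21 (SE 0.14) and not called, against 1.80 in dPOLE4, a difference of -1.59. Zim1, the maternal zinc finger gene beside them (chr7:6671269-6696450, minus strand), went from 1.36, 1.54 and 2.12 CPM to 8.76, 11.9 and 11.6 CPM in Ctrl (2.63). The 3 genes of the cluster thus all rose in Ctrl, and none of the Ctrl T0 and T60 values overlapped.

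Mest had the largest rise of the members at T24, but was not called at T12 (0.40). It was at 221, 187 and 205 CPM in Ctrl at T0, 744, 805 and 942 CPM at T24 (4.07-fold) and 1336, 1377 and 1236 CPM at T60 (6.35-fold). Mest shares 23.1% of its exon bases with Copg2 on the opposite strand, and whether the counting used strand is not given in the sources used here. Plagl1 rose 3.66-fold in Ctrl, to 166, 186 and 150 CPM, and 5.83-fold in Ctrl MCM2-2A, to 44.0, 46.6 and 43.3 CPM. So the Plagl1 response was larger in the MCM2-2A line (difference 0.64, SE 0.14, edgeR adjusted p = 0.00275), and its T60 level there lay in the range of Ctrl at T0. Without Ctrl T0 replicate 1 that difference was 0.55 and not called. Peg10 rose 4.41-fold in Ctrl, to 6485, 6886 and 7121 CPM, and Sgce rose by 2.69 on the log2 scale, to 39.7, 43.7 and 44.0 CPM. Gnas, the stimulatory G protein subunit (chr2:174284320-174346744, plus strand), rose 4.46-fold from 139, 134 and 132 CPM to 662, 578 and 593 CPM. H13, a signal peptide peptidase (chr2:152669461-152708670, plus strand), rose by 0.92, from 32.1, 31.5 and 31.8 CPM to 66.8, 58.3 and 57.6 CPM. Mcts2, a retrocopy inside an H13 intron (chr2:152687035-152687946, plus strand), fell 2.92-fold instead, from 33.7, 37.5 and 33.6 CPM to 11, 12.4 and 13.3 CPM.

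Snrpn fell at T60 while other genes of its cluster rose. It went from 154, 149 and 155 CPM to 56.3, 50.1 and 51.8 CPM in Ctrl (2.93-fold, log2 fold change -1.55, SE 0.06), and fell 3.88-fold in Ctrl MCM2-2A, to 43.4, 38.0 and 40.8 CPM. The Snrpn model shares 10.0% of its exon bases with Snurf and 27.3% with Gm38393 on the same strand. Ndn rose by 2.17 in Ctrl, to 49.9, 42.6 and 46.6 CPM, and by 2.90 in Ctrl MCM2-2A, to 30.5, 30.1 and 31.2 CPM. Peg12 rose by 1.48 and 1.79 on the same scale. Magel2 was lower than at T0 at T12 (-0.95) and T24 (-0.93) in Ctrl, and at T60 rose only in Ctrl MCM2-2A (0.97), to 7.40, 6.82 and 7.25 CPM. The Magel2 response differed between the lines by 1.45 (SE 0.22).

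Cdkn1c and Grb10 were higher at T24 and not called at T60. Cdkn1c was at 12.7, 13.6 and 12.8 CPM in Ctrl at T0, at 21.8, 25.3 and 21.4 CPM at T12 and at 33.5, 31.9 and 29.9 CPM at T24 (2.45-fold), and then at 17.3, 11.3 and 16.8 CPM at T60, where its groups overlapped those of T0. Grb10 was at 69.1, 71.6 and 76.9 CPM at T24 (2.13-fold above T0) and 26.3, 26.7 and 25.2 CPM at T60. Kcnq1ot1 fell at T60 in Ctrl (-1.06), from 114, 126 and 127 CPM to 51.5, 75.2 and 52.8 CPM. Zdbf2, a zinc finger gene of chromosome 1 (chr1:63273265-63314576, plus strand), fell by 0.71 in Ctrl, from 186, 196 and 185 CPM to 106, 133 and 112 CPM, and by 0.78 in Ctrl MCM2-2A. Nap1l5, a nucleosome assembly protein family gene (chr6:58905233-58907076, minus strand), rose from 0.340, 0.456 and 0.506 CPM to 1.70, 1.55 and 2.30 CPM in Ctrl, and was at 0.474, 0.647 and 0.153 CPM in Ctrl MCM2-2A at T60. Airn rose from 1.08, 0.855 and 0.809 CPM to 8.51, 9.86 and 8.15 CPM in Ctrl and reached 5.45, 8.44 and 6.34 CPM in Ctrl MCM2-2A. Nnat rose from 23.2, 18.7 and 19.2 CPM to 71.1, 76.1 and 76.2 CPM in Ctrl. Impact, a regulator of translation control by GCN2, moved least, with -0.14 to -0.08 over the 4 arms. At T12 the calls of Ndn (0.59), Mcts2 (-0.58) and Kcnq1ot1 (-0.61) were lost without 3, 3 and 1 of the 6 libraries in turn, at 0.52 to 0.57, -0.57 to -0.53 and -0.57. At T24 those of Slc22a18 (-1.31) and Ascl2 (-0.68) were lost without 4 and 3 of them (edgeR adjusted p 0.0146 to 0.0699 and 0.0122 to 0.0151).

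**Figure D4:**
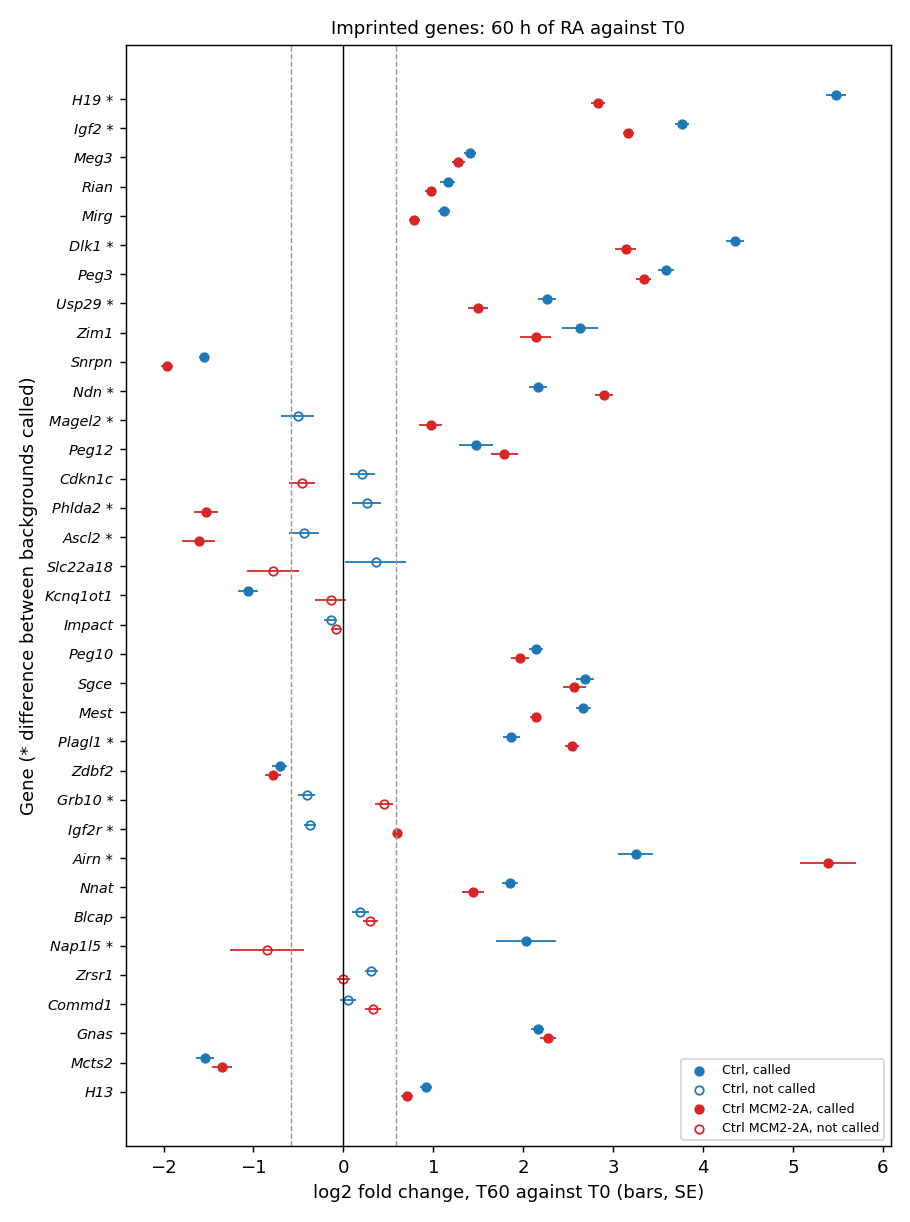
Log2 fold change at 60 h of RA against T0, with SE bars, for each imprinted gene in Ctrl (blue) and Ctrl MCM2-2A (red). Filled points are DE, dashed lines mark the size required of 0.58 and an asterisk marks the 13 genes whose response differed between the lines. H19 shows the widest gap of the well expressed genes, 5.48 against 2.83.

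The response at T60 itself differed between the lines for 6 members with a higher and 7 with a lower value in Ctrl MCM2-2A, where 9.10% of features were called (4.70% higher and 4.40% lower). Higher were Plagl1, Grb10, Igf2r, Ndn, Magel2 and Airn, and lower were H19, Ascl2, Phlda2, Dlk1, Igf2, Usp29 and Nap1l5. In the dTAG-treated arms 3 members had a higher and 9 a lower value, against 8.22% of features (4.38% higher and 3.84% lower). Phlda2 fell by 1.53 on the log2 scale in Ctrl MCM2-2A, to 8.39, 10.4 and 9.30 CPM, and was not called in Ctrl (14.9, 11.4 and 19.9 CPM), a difference of -1.82 (SE 0.23). Ascl2 fell by 1.61 in Ctrl MCM2-2A, to 2.18, 2.36 and 2.50 CPM, and was at 4.62, 3.65 and 4.70 CPM in Ctrl, a difference of -1.20 (SE 0.24). Igf2r rose by 0.60 in Ctrl MCM2-2A and was at -0.37 in Ctrl, a difference of 0.94 (SE 0.08). At T60 the 8 pluripotency markers summed to 396 to 461 CPM in Ctrl and 727 to 866 CPM in Ctrl MCM2-2A, with 7 of 8 DE and higher. Trophoblast markers summed to 52.2 to 68.9 CPM and 176 to 202 CPM, most of it Krt7, while Tpbpa and Prl3d1 were near 0. Fibroblast markers summed to 402 to 547 CPM and 206 to 214 CPM. Of these Col1a1, Col1a2, Col3a1 and Dcn were lower, Thy1 was higher (mean 1.53 and 5.86 CPM) and Pdgfrb was at 34.5 and 33.4 CPM. Retinoic acid and neural markers overlapped in sum (753 to 953 and 760 to 795 CPM), with 3 of 8 DE and lower, namely Pax6, Sox1 and Rarb. Afp (-3.68) and Ttr (-2.30) of the endoderm list were lower in Ctrl MCM2-2A although that list's sum was higher (1129 to 1409 and 1613 to 1825 CPM). The part of these marker differences in the responses of the imprinted genes was not tested.

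Depletion of POLE4 left nearly all imprinted genes without a detected change in the WT background. In dPOLE4 against Ctrl no member was called at T0, T12, T24 or 96 h, where 0% of features were called by edgeR at each of these points, and 1 was called at T60, where 0.193% were. The study used DESeq2 at the same thresholds. It reported no detectable difference after 24 h of depletion in this background, but some DE genes after 96 h. At an unadjusted p under 0.05 there were 8, 5, 7, 10 and 6 members at T0, T12, T24, T60 and 96 h, and DESeq2 called 0, 0, 0, 1 and 0. The share of all features at that p is not given here, so the unadjusted counts show nothing particular to the members. Of 173 member values tested over the 5 points, 4 exceeded a log2 fold change of 0.58 in size. The member called was Plagl1 at T60, which went from 166, 186 and 150 CPM in Ctrl to 99.6, 104 and 118 CPM in dPOLE4 (1.54-fold lower, -0.63, SE 0.08, edgeR adjusted p = 0.0014). Its groups did not overlap, but the call was lost without Ctrl T60 replicate 2 (-0.53) or dPOLE4 T60 replicate 1 (-0.58, adjusted p 0.0174). Mest passed the p threshold at T60 with a smaller change (-0.38, edgeR adjusted p = 0.00586), from 1336, 1377 and 1236 CPM to 996, 995 and 1017 CPM. In the same comparison fibroblast markers summed to 402 to 547 CPM in Ctrl and 336 to 355 CPM in dPOLE4, and extraembryonic endoderm markers to 1129 to 1409 and 826 to 1115 CPM. Pluripotency markers summed to 396 to 461 and 484 to 516 CPM and trophoblast markers to 52.2 to 68.9 and 73.5 to 75.1 CPM, while retinoic acid and neural markers overlapped (753 to 953 and 805 to 812 CPM). Most of these trophoblast sums was Krt7 (mean 43.6 CPM in Ctrl and 52.4 CPM in dPOLE4). Over these 5 lists 3 genes were DE, all lower, 1 of the fibroblast list and 2 of the retinoic acid and neural list. The part of these marker differences in the values of Plagl1, Mest and Igf2 at T60 was not tested.

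In the MCM2-2A background, members were called upon depletion at T24 and T60 in the main edgeR fits. In dPOLE4 MCM2-2A against Ctrl MCM2-2A, 0, 0, 2, 7 and 0 members were called at T0, T12, T24, T60 and 96 h. With the replicate number as a block, which paired the 96 h libraries, Zim1 was also called after 96 h (0.90, edgeR adjusted p = 0.00925), at 1.52, 1.68 and 1.99 CPM in Ctrl MCM2-2A and 2.83, 2.92 and 3.97 CPM in dPOLE4 MCM2-2A, where the fit without the block gave 0.86 (adjusted p = 0.154). The background was 0.0715%, 0.404%, 1.02%, 2.25% and 0.304% of features, and at T60 it was 1.07% higher and 1.19% lower. At an unadjusted p under 0.05 there were 10, 12, 14, 23 and 11 members, and DESeq2 called 0, 1, 1, 8 and 0. The share of all features at that p is not given here, so the unadjusted counts show nothing particular to the members. At T60, 3 maternal members of the Kcnq1ot1 cluster were higher and 4 paternal members were lower. The median log2 fold change was 0.16 over the 10 maternal and -0.22 over the 20 paternal members tested. The 3 higher genes all belong to 1 cluster, and the maternal Meg3, Mirg and Rian were lower without being called. The difference between the maternal and paternal members was not tested.

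The 3 higher genes lie within about the same stretch of distal chromosome 7. Phlda2 went from 8.39, 10.4 and 9.30 CPM in Ctrl MCM2-2A to 19.5, 23.3 and 20.8 CPM in dPOLE4 MCM2-2A (2.26-fold, 1.17, SE 0.11, edgeR adjusted p = 4.89e-04). Cdkn1c went from 14.0, 15.5 and 13.5 CPM to 27.8, 31.3 and 24.2 CPM (1.93-fold, 0.95, SE 0.11, 7.27e-04). Ascl2 went from 2.18, 2.36 and 2.50 CPM to 4.16, 5.32 and 3.94 CPM (1.90-fold, 0.92, SE 0.18, edgeR adjusted p = 0.00782). In all 3 the groups stood apart without overlap, while the Ascl2 call was lost when any of 5 of the 6 libraries was left out (edgeR adjusted p 0.0156 to 0.0403). In the WT background the same genes at T60 were at 20.6, 22.6 and 18.8 CPM for Phlda2 and 18.1, 16.4 and 18.2 CPM for Cdkn1c in dPOLE4, and were not called against Ctrl.

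The 4 lower genes were Usp29, Nnat, Peg3 and Mest. Usp29 went from 16.0, 16.9 and 16.8 CPM to 7.91, 7.39 and 9.21 CPM (2.02-fold, -1.02, SE 0.11, edgeR adjusted p = 5.01e-04). Nnat went from 24.7, 27.1 and 30.8 CPM to 14.9, 14.9 and 17.6 CPM (1.73-fold, -0.79, SE 0.11), and the call was lost without Ctrl MCM2-2A T60 replicate 3 (0.0149) or dPOLE4 MCM2-2A T60 replicate 2 (edgeR adjusted p 0.0106). Both genes were apart from their controls in every library. Peg3 went from 1850, 2030 and 2075 CPM to 1244, 1251 and 1334 CPM (1.56-fold, -0.64, SE 0.07, edgeR adjusted p = 5.68e-04). Mest went from 716, 722 and 703 CPM to 439, 423 and 507 CPM (1.56-fold, -0.64, SE 0.08, edgeR adjusted p = 7.37e-04). Peg3 and Usp29 are the paternal pair that share a start region, and both were lower. Meg3 (-0.56), Mirg (-0.57) and Rian (-0.52) of chromosome 12 passed the p threshold and stayed just under the size required. Magel2, a further paternal member, went from 7.40, 6.82 and 7.25 CPM to 4.27, 5.21 and 3.99 CPM without overlap and was not called (-0.67, edgeR adjusted p = 0.0129), but it was without the filter, with the replicate block and in DESeq2 (-0.68 to -0.67, adjusted p 6.87e-04 to 0.00885).

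At T24 in the MCM2-2A background H19 rose from 396, 499 and 475 CPM to 596, 828 and 641 CPM (0.60, SE 0.11, edgeR adjusted p = 0.00466) and Nnat fell from 18.6, 20.4 and 18.4 CPM to 10.2, 14.0 and 9.82 CPM (-0.78, SE 0.12, 0.002). The H19 call was lost without Ctrl MCM2-2A T24 replicate 1, 2 or 3 (0.0386, 0.0185 and 0.0125) or dPOLE4 MCM2-2A T24 replicate 2 (log2 fold change 0.45). The Nnat call was lost without Ctrl MCM2-2A T24 replicate 1 or 2 (edgeR adjusted p 0.0116 and 0.0244) or dPOLE4 MCM2-2A T24 replicate 1 (0.0125). At T24 retinoic acid and neural markers summed to 501 to 535 CPM in Ctrl MCM2-2A and 399 to 431 CPM in dPOLE4 MCM2-2A, and trophoblast markers to 52.9 to 64.1 and 71.1 to 86.3 CPM. At T60 the pluripotency markers summed to 925 to 1160 CPM in dPOLE4 MCM2-2A and 727 to 866 CPM in Ctrl MCM2-2A. Trophoblast markers summed to 222 to 300 and 176 to 202 CPM, extraembryonic endoderm markers to 1259 to 1376 and 1613 to 1825 CPM and retinoic acid and neural markers to 631 to 672 and 760 to 795 CPM. Fibroblast markers summed to 118 to 135 and 206 to 214 CPM, where Col1a1, Col1a2 and Col3a1 were lower and Pdgfrb was at 50.0 and 33.4 CPM in mean without being DE. The part of these marker differences in the changes of H19, Phlda2, Cdkn1c, Ascl2, Usp29, Nnat, Peg3 and Mest was not tested.

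**Figure D5:**
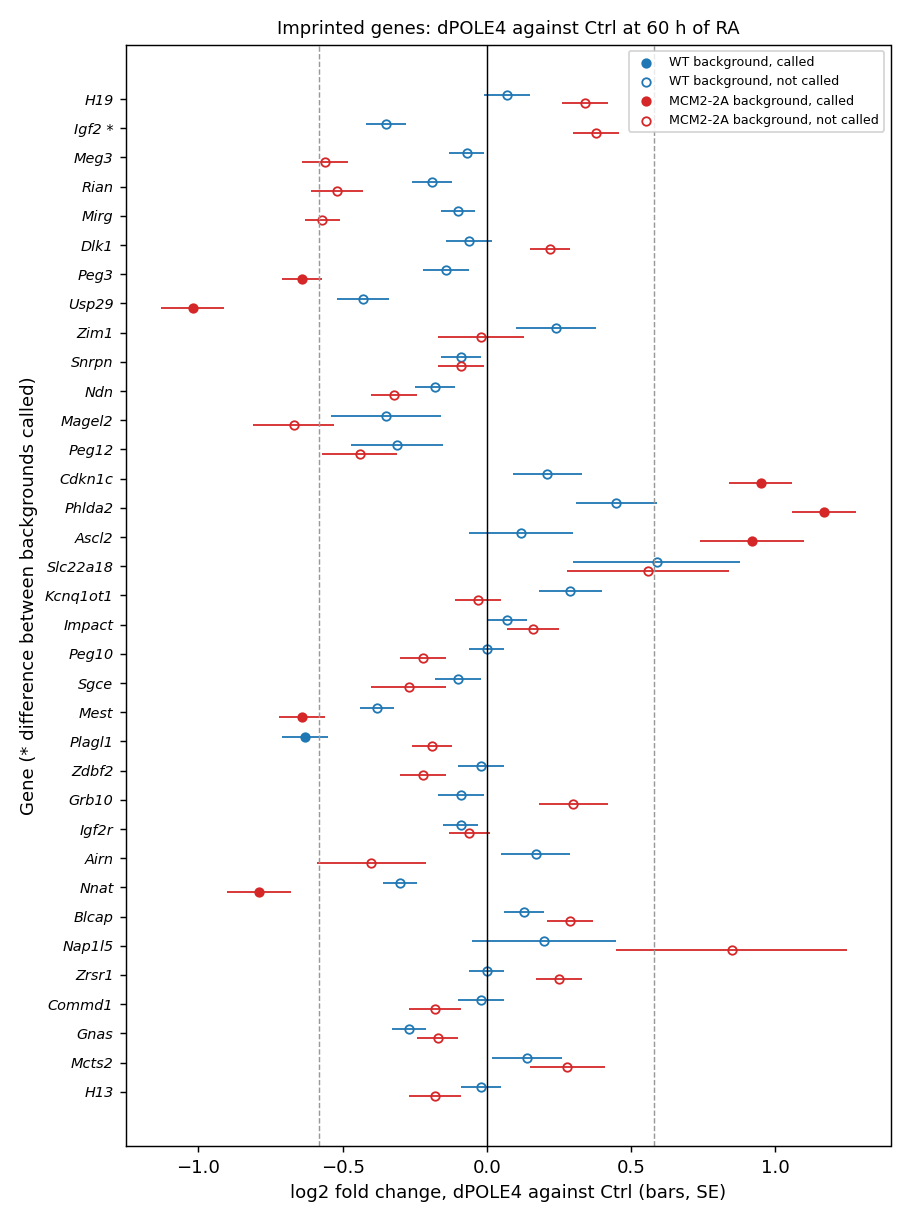
Log2 fold change upon POLE4 depletion at 60 h of RA, with SE bars, in the WT (blue) and MCM2-2A (red) backgrounds for each imprinted gene. Filled points are DE and an asterisk marks a DE difference between backgrounds. Plagl1 is the filled point in WT (-0.63), 7 genes are filled in MCM2-2A, and the asterisk stands at Igf2, which moves from -0.35 to 0.38.

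The effects of POLE4 depletion in the 2 backgrounds were then compared in a fit of the 12 libraries of each point. No member differed at T0, T12, T24 or 96 h, where 0.00526%, 0.0159%, 0.0351% and 0% of features did, and 1 did at T60, where 0.100% of features did. At an unadjusted p under 0.05 there were 3, 1, 7, 17 and 2 members at T0, T12, T24, T60 and 96 h, and DESeq2 called 0, 0, 0, 1 and 0. The share of all features at that p is not given here, so the unadjusted counts show nothing particular to the members. The member called by edgeR at T60 was Igf2. In the WT background it went from 215, 184 and 194 CPM in Ctrl to 171, 148 and 141 CPM in dPOLE4 (-0.35, SE 0.07, edgeR adjusted p = 0.0231). In the MCM2-2A background it went from 269, 272 and 260 CPM to 322, 390 and 332 CPM (0.38, SE 0.08, edgeR adjusted p = 0.0118). The groups did not overlap in either background and the directions were opposite, while neither effect was called on its own. The difference was 0.74 (SE 0.12, edgeR adjusted p = 0.0081), and it was no longer called when 9 of the 12 libraries were left out in turn (adjusted p 0.0113 to 0.0448). It held without dPOLE4 T60 replicate 1 and without dPOLE4 MCM2-2A T60 replicate 1 or 3. For Phlda2, Cdkn1c, Ascl2, Usp29, Nnat, Peg3, Mest and Plagl1 the difference between backgrounds was not called (0.26 to 0.81 in size, edgeR adjusted p 0.061 to 0.339). Without the filter it was called for Phlda2 (0.71, edgeR adjusted p = 0.00261), Cdkn1c (0.72, 0.00114) and Usp29 (-0.60, 0.00858), where 4 members were called in place of 1. So whether the depletion effects of Phlda2, Cdkn1c and Usp29 differ between backgrounds depends on the filter, and those of the other genes are not shown to be particular to a background.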

How the data were processed

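RNA of 60 libraries was analysed from the counts of reads per gene and repeat subfamily that the authors deposited in 2 tables, without normalization or pooling. Per the labels and methods, rRNA-depleted, strand-specific libraries were trimmed with cutadapt 4.2, aligned to mm10 with STAR while keeping reads that align more than once, and counted with TEcount on GENCODE genes and repeats. Whether counting used strand is not given in the sources used here. Multiply aligned reads affect gene copies such as Mcts2.

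Members and other gene lists were chosen with earlier results of these data known. Groups came from the sample titles. Symbols and positions came from an older GENCODE release of mm10, which gave 55141 of 55487 IDs a symbol, and sequences from RefSeq GRCm38.p6. The 60 pairs of replicates held no identical libraries, and their counts differed by more than sampling noise. The methods call the 3 libraries of a group biological replicates, and nothing in the labels says how the cultures were kept apart.

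Each comparison was fitted on its own groups in R 4.3.3 with edgeR 4.0.16 (quasi-likelihood F test), filterByExpr (minimum count 10, minimum total 15) and TMM over genes and repeats together. TMM factors lay between 0.911 and 1.07 in the 24 h and RA table and between 0.961 and 1.04 in the 96 h table. Benjamini-Hochberg adjustment ran over all tested features. Differences of an effect between backgrounds were interaction terms over 12 libraries. The procedure was tested on simulated data. The SE includes both counting error and the spread between libraries.

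Named with values per library were members called in at least 2 of the 5 Ctrl MCM2-2A against Ctrl comparisons, at T60 against T0 in Ctrl or Ctrl MCM2-2A, upon depletion or in a difference between backgrounds. Of the other lists, up to 3 called genes of largest fold change were named.

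The alternatives were DESeq2 1.42.0, edgeR with DESeq2 size factors, a fit without the filter, a filter of 10 counts or more in each library of the fit, the replicate number as a block, leaving out each library in turn, and neighbours within 2 Mb in place of 5 Mb. In the 96 h comparisons every pair of libraries with the same number deviated together from the group means (lowest r 0.108, 0.114, 0.122 and 0.167 in the 4 comparisons), so there the replicate number may pair the samples. This pairing comes from the data and not from the labels. The main 96 h fits had no block and so ignore it. With the block, 10 members were called in place of 9 for Ctrl MCM2-2A against Ctrl after 96 h. For dPOLE4 MCM2-2A against Ctrl MCM2-2A it was 1 in place of 0. The count stayed at 9 for dPOLE4 MCM2-2A against dPOLE4 and at 0 for dPOLE4 against Ctrl.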

Additional observations from a re-analysis of the deposited data

Results flagged for a closer look

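Each result here is a difference of an effect between the backgrounds, tested as an interaction term in edgeR with all 4 groups in the fit and adjusted over all tested features. Values are MCM2-2A minus WT on the log2 scale.

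For the response to 60 h of RA in DMSO-treated cells, the value was lower in the MCM2-2A line for H19 (-2.68), Nap1l5 (-2.92), Phlda2 (-1.82), Dlk1 (-1.25), Ascl2 (-1.20), Usp29 (-0.80) and Igf2 (-0.63). It was higher for Airn (2.10), Magel2 (1.45), Igf2r (0.94), Grb10 (0.83), Ndn (0.69) and Plagl1 (0.64). Airn and Nap1l5 rest on few counts, and the Airn call was lost without Ctrl MCM2-2A T0 replicate 3 (edgeR adjusted p 0.0109).

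In dTAG-treated cells it was lower for H19 (-2.50), Usp29 (-1.59), Zim1 (-1.18), Phlda2 (-1.0), Peg3 (-0.86), Dlk1 (-0.86), Mirg (-0.81), Meg3 (-0.71) and Rian (-0.61), and higher for Grb10 (1.01), Igf2r (0.91) and Ndn (0.58). Leaving out 1 library at a time ended the call of Ndn in 9 of 12 cases (edgeR adjusted p 0.0106 to 0.0196), of Dlk1 in 7 (0.0106 to 0.0189) and of Rian in 4 (-0.56 to -0.51). The arms share no library, and H19, Phlda2, Grb10, Igf2r, Ndn, Dlk1 and Usp29 were called in both with the same sign.

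The effect of POLE4 depletion at T60 differed between backgrounds for Igf2 (0.74).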

How the results depend on the processing

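Over the 33 comparisons, 165 counts of called members were recomputed under the alternatives other than leaving out a library, and 6 moved by more than 1.5 times. With no filter, dPOLE4 against Ctrl at T0 went from 0 to 1 (Magel2, -0.68), dPOLE4 MCM2-2A against Ctrl MCM2-2A at T12 from 0 to 1 (Plagl1) and the difference of the POLE4 effect at T60 from 1 to 4 (with Phlda2 0.71, Cdkn1c 0.72 and Usp29 -0.60). DESeq2 also gave 1 at T12 in the MCM2-2A background and 1 in place of 2 at T24, where H19 was lost (adjusted p 0.0129). With the replicate block, dPOLE4 MCM2-2A against Ctrl MCM2-2A after 96 h went from 0 to 1 (Zim1, 0.90, edgeR adjusted p 0.00925), and Ctrl MCM2-2A against Ctrl after 96 h from 9 to 10 with Magel2. At the other points the libraries were not taken as paired, and there the block moved no count by over 1.5 times. Pairing is not excluded there. In dPOLE4 MCM2-2A against Ctrl MCM2-2A at T0, libraries of the same number also deviated together (lowest r 0.0993, mean 0.193). The cause of these moves was not tested. Of 1424 recomputed values of called members, 13 were no longer called. Of 1878 values with a library left out, 116 were no longer called and 0 changed sign.

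When each library was left out in turn, the counts of called members lay between these values. For Ctrl MCM2-2A against Ctrl at T0, T12, T24, T60 and 96 h they were 12 to 13, 9 to 12, 13 to 14, 18 to 20 and 7 to 10. For dPOLE4 MCM2-2A against dPOLE4 they were 10 to 13, 11 to 14, 12 to 15, 20 to 21 and 6 to 10. For dPOLE4 against Ctrl they were 0 to 1 at T60 and 0 elsewhere. In the MCM2-2A background they were 0 to 1 at T12, 0 to 3 at T24, 5 to 8 at T60 and 0 at T0 and 96 h. For T60 against T0 they were 24 to 25 in Ctrl, 22 to 25 in dPOLE4, 26 to 28 in Ctrl MCM2-2A and 19 to 21 in dPOLE4 MCM2-2A. The difference of the POLE4 effect at T60 gave 0 to 1. Depth limits Rtl1, Airn and Nap1l5, which did not pass the filter in every comparison. With neighbours taken within 2 Mb in place of 5 Mb, 16 of 69 neighbour medians moved by over 0.1.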

Other observations

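A wider list of 45 other imprinted genes was followed in the same fits. In Ctrl MCM2-2A against Ctrl at T0, 6 were higher and 3 lower of 36 tested, where 18.9% of features were called (9.83% higher and 9.06% lower), led by Ddc (-2.03), the aromatic amino acid decarboxylase next to Grb10, by Th (1.55), tyrosine hydroxylase, and by Peg13 (-1.48), a noncoding RNA. The median log2 fold change of this list was -0.02, as over all features (-0.02). During 60 h of RA in Ctrl, 14 rose and 5 fell of 37 tested, where 50.6% of features were called (26.9% higher and 23.7% lower). The largest changes were a fall of Cobl (-4.51), an actin nucleator, and rises of Slc22a3 (4.15), an organic cation transporter, and Dcn (3.85), a matrix proteoglycan.

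Of 19 factors that establish, keep or remove imprints and DNA methylation, 1 rose and 10 fell at T60 against T0 in Ctrl, where 26.9% of features were higher and 23.7% lower. The largest falls were Zfp42 (-4.21), Dppa3 (-4.08), which protects the maternal genome from demethylation, and Tet1 (-3.64), which oxidizes 5-methylcytosine. Their summed level fell from between 7339 and 7435 CPM to between 2855 and 3087 CPM. In Ctrl MCM2-2A 13 fell and none rose in edgeR, where 21.2% of features were lower and 26.3% higher. Between the lines at T0, Dnmt3a (1.48) and Uhrf1 (0.70) of these 19 factors were higher in Ctrl MCM2-2A, and Dppa3 (-2.09) and Tet2 (-0.62) were lower. Of all features 18.9% were called there (9.83% higher and 9.06% lower), so this is near the share of all features.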
